A study of Mus musculus with 12 samples.

Results

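The effect of taurocholic acid (TCA) given to hepatocytes together with copper was examined by RNA sequencing. The 3 libraries of group C were compared with the 3 libraries of group B. These are 6 of the 12 libraries of a study of AML12 cells, in 4 groups of 3. Group A was kept in standard growth medium. Group B received 300 μM CuCl2 with 40 nM elesclomol (Cu/ES), group C received the same Cu/ES with 1000 μM TCA, and cells of group D were given 1000 μM TCA alone. All treatments lasted 24 h, and Cu/ES is shared by both groups compared here. AML12 is a nontumorigenic mouse hepatocyte line established from an animal with a transgene for transforming growth factor alpha, so all libraries represent a cultured line and not liver tissue. Libraries were named by group and replicate number, as B1 to B3 and C1 to C3, and values of a group are given in the order of these numbers. Expression is given as FPKM, the fragments of a gene scaled by its length and by the total of its library. A gene was included when its mean FPKM over the 6 libraries was at least 1, which kept 8615 of the 24824 listed genes, or 34.7%.

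TCA is a primary bile acid conjugated to taurine, which hepatocytes take up from blood and secrete into bile, and which accumulates in cholestasis. Elesclomol is an ionophore that carries copper into cells and releases it in mitochondria. In cuproptosis, copper binds to lipoylated enzymes of the citric acid cycle and destabilizes iron-sulfur cluster proteins, and ferredoxin 1 (FDX1) acts upstream of lipoylation. Copper overload also damages cytosolic proteins, and it engages heat shock proteins, metallothioneins and antioxidant genes. The comparison of groups C and B addresses what TCA changes in the transcripts of cells that receive Cu/ES over the same 24 h. The paper reports that TCA raised copper accumulation in AML12 cells at a lower CuCl2 dose. The copper load of groups B and C may therefore differ.

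The steps between FPKM values gave library totals, which were 30773752 to 32002324 reads without TCA and 29115011 to 34912748 reads with TCA. On log2(FPKM + 1) of the genes tested, C2 lay apart from its group. Its Euclidean distances to C1 and C3 were 29.8 and 27.5, whereas C1 and C3 lay 16.4 apart and the libraries of group B lay 16.9 to 21.6 apart. From group B, C2 was 39.6 to 41.6 away, and C1 and C3 were 45.0 to 49.1 away. Thus C2 stood on the side of group C but nearer to group B. Results are therefore also given without C2. Since nothing in the labels says that replicates came from separate cultures, p-values measure only the spread between these libraries.

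**Figure D1:**
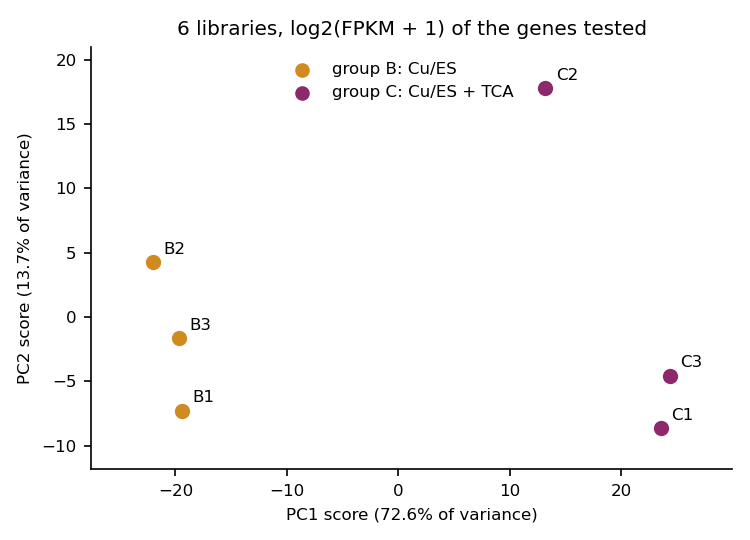
Scores of the 6 libraries on the first and second principal components of log2(FPKM + 1), with 1 point per library. PC1 (72.6% of the variance) separates group B (Cu/ES) from group C (Cu/ES with TCA), and C2 stands apart from C1 and C3 on PC2 (13.7%) and nearer to group B on PC1.

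Marker genes were checked against the label of the cells. *Alb*, the gene of serum albumin and the defining hepatocyte product, was between 0 and 0.0758 FPKM in the 6 libraries, with at most 5 reads. *Apob*, *Hnf4a* and *Cps1*, also hepatocyte markers, were each under 0.1 FPKM in all 6. The hepatocyte and biliary keratin genes *Krt8* and *Krt18* were expressed at 192, 164 and 192 FPKM and 83.8, 69.1 and 92.7 FPKM in group B. In group C, *Krt8* was at 113, 132 and 122 FPKM and fell (log2 fold change -0.58, limma, adjusted p = 0.00123), while *Krt18*, at 57.8, 74.9 and 54.6 FPKM, also passed (-0.39, limma, adjusted p = 0.047) although its libraries overlapped with group B. Of 9 hepatocyte markers in the table, 4 had a mean of at least 1 FPKM. Besides the falls of *Krt8* and *Krt18*, the marker *Asgr1* rose at an adjusted p under 0.05 (log2 fold change 1.46, limma). The summed level of the 9 markers ran from 240.0 to 292 FPKM in group B and from 187 to 218 FPKM in group C. Most of it came from the keratin genes *Krt8* and *Krt18*, which biliary cells share. Of 5 macrophage markers in the table, *Ptprc*, *Adgre1* and *C1qa* were under 0.1 FPKM in all 6 libraries, and *Cd14* alone had a mean of at least 1 FPKM, at 2.45, 1.22 and 1.66 FPKM in group B and 1.03, 1.07 and 1.58 FPKM in group C without passing the test (limma, adjusted p = 0.183). Their summed level ran from 1.43 to 2.69 FPKM in group B and from 1.38 to 2.16 FPKM in group C. Of 6 stellate cell or fibroblast markers, *Pdgfrb* was under 0.1 FPKM in all 6 libraries, and the collagen gene *Col1a1* alone averaged at least 1 FPKM and fell, from 1.30, 2.46 and 0.877 FPKM to 0.452, 0.913 and 0.371 FPKM (limma, adjusted p = 0.0393). *Col1a1* was under 1 FPKM in every library of group C, so it passed the filter only through group B. The summed level of these 6 markers ran from 1.86 to 3.53 FPKM in group B and from 1.22 to 1.90 FPKM in group C. Of 6 endothelial markers, *Stab2* and *Lyve1*, which define liver sinusoidal endothelium, were under 0.1 FPKM in all 6 libraries, and 2 averaged at least 1 FPKM. The adhesion molecule gene *Pecam1* was at 5.31, 9.55 and 5.67 FPKM in group B and 14, 18.2 and 16 FPKM in group C and rose (limma, adjusted p = 0.00161), and the cadherin gene *Cdh5*, at 1.11, 0.642 and 1.05 FPKM and 2.02, 0.993 and 1.78 FPKM, did not pass (limma, adjusted p = 0.0822). The summed endothelial level ran from 6.83 to 10.5 FPKM in group B and from 16.8 to 19.8 FPKM in group C. The summed level of the biliary list ran from 1242 to 1406 FPKM in group B and from 741 to 954 FPKM in group C, most of it from *Spp1*, which encodes osteopontin. Of the 7 biliary markers, 4 averaged at least 1 FPKM, and 1 rose and 1 fell at an adjusted p under 0.05 (limma). In bulk RNA, fewer cells of a kind and less RNA per cell cannot be told apart.

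Adding TCA to Cu/ES changed many transcripts, most of them by little. At an adjusted p under 0.05 (limma, Benjamini-Hochberg), 1851 genes were higher in group C and 1946 were lower, which is 21.5% and 22.6% of the genes tested. With an absolute log2 fold change above 1 in addition, 130 genes rose (1.51%) and 123 fell (1.43%), which are the counts meant by both thresholds below. All 3 libraries of group C lay above all 3 of group B in 26% of the genes tested and below them in 28.6%. In several lists described below, the shares that rose and fell at the adjusted p were near those of all genes or smaller. These are the complex I assembly factor, iron-sulfur, iron handling, proteasome, splicing, Hedgehog, histone, cytosolic ribosomal protein and ribosome biogenesis lists. The median log2 fold change over the genes tested was -0.01. When each library was rescaled to TPM, 280 genes rose and 144 fell past both thresholds, so that 66% of these calls were rises instead of 51.4%.

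Leaving out C2 gave 187 rises and 180 falls past both thresholds, and 239 genes were called with and without it. In C2, 185 of the 187 rising genes exceeded all 3 libraries of group B, and 172 of the 180 falling genes were below all of them. Its median position was 73.4% of the way from the group B mean to the mean of C1 and C3 for rises and 71.1% for falls. These positions are given as a description, since the genes were chosen for large differences of C1 and C3 from the same group B libraries.

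Among genes past both thresholds that averaged 5 FPKM or more and whose groups were apart, the largest rise was that of *Egr1*, an immediate early zinc finger transcription factor that is induced by growth factor and stress signaling. It was at 35.8, 47.0 and 38.1 FPKM in B1 to B3 and 232, 233 and 248 FPKM in C1 to C3, a log2 fold change of 2.54 (SE 0.10, limma, adjusted p = 1.1e-05). Groups did not overlap, and C2 stood with C1 and C3. In the groups without copper, *Egr1* was at 41.0 ± 8.73 FPKM in group A and 70.2 ± 12.1 FPKM in group D (mean ± SD, n = 3). *Arc*, an activity-induced gene best known from neurons, went from 87.9, 122 and 79.7 FPKM to 246, 279 and 238 FPKM (log2 fold change 1.41, SE 0.15, limma, adjusted p = 0.000274). Its level was 1.74 ± 0.364 FPKM in group A and 3.46 ± 0.617 FPKM in group D, so that it was far lower in both groups without Cu/ES.

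*Cdkn1c*, which encodes the cyclin-dependent kinase inhibitor p57, was at 25.6, 30.9 and 25.8 FPKM in group B and 85.2, 134 and 87.8 FPKM in group C (log2 fold change 1.84, SE 0.16, limma, adjusted p = 0.000177). For this gene C2 was the highest library, and without C2 the log2 fold change was 1.63. *Asgr1*, a subunit of the asialoglycoprotein receptor of hepatocytes, was at 3.64, 3.64 and 4.24 FPKM and 13.5, 8.92 and 15.3 FPKM (log2 fold change 1.46, limma, adjusted p = 0.000406). *Mepce*, which caps the small nuclear RNA 7SK, was at 4.56, 6.46 and 5.27 FPKM and 15.3, 17.9 and 17 FPKM (log2 fold change 1.47, limma, adjusted p = 0.000145). In both genes the groups were apart, and the C2 value was lowest in *Asgr1* and highest in *Mepce*. The other 5 of the 10 largest rises were the long noncoding or predicted gene *Gm15728* (1.74), the membrane lipid regulator *Tlcd2* (1.59), the secreted protein gene *Mia* (1.55), the nucleoporin-like *Nup210l* (1.46) and *Hhipl2* (1.40), with log2 fold changes in parentheses. Their group B libraries lay between 2.06 FPKM in *Nup210l* and 11.1 FPKM in *Tlcd2*. *Gm15728*, *Tlcd2*, *Mia* and *Hhipl2* were all under 1 FPKM on average in groups A and D.

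By the same rule, the largest fall was in *Pcolce*, which encodes a secreted enhancer of the protease that trims procollagen. It was at 153, 191 and 149 FPKM in group B and 25.7, 47.4 and 25 FPKM in group C (log2 fold change -2.35, SE 0.22, limma, adjusted p = 0.000194), and -2.64 without C2. The small heat shock protein gene *Hspb1* was at 1729.8, 2954 and 1831 FPKM and 402, 887 and 426 FPKM (log2 fold change -1.98, SE 0.30, limma, adjusted p = 0.0012). In both genes the second library of each group was the highest, and the groups stayed apart. Without B2 and C2, the log2 fold change of *Hspb1* was -2.10. *Hspb1* was at 55.4 ± 5.24 FPKM in group A, so its group C level remained above that of untreated cells.

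*Cyba*, the membrane subunit p22phox of NADPH oxidases, was at 14.5, 14.5 and 11.8 FPKM and 1.36, 3.66 and 2.94 FPKM (log2 fold change -2.05, limma, adjusted p = 0.000325). *Galk1*, which phosphorylates galactose, was at 15.2, 13.1 and 15.1 FPKM and 3.03, 4.47 and 3.43 FPKM (log2 fold change -1.75, limma, adjusted p = 0.000123). *Pclaf*, a partner of the replication clamp PCNA, was at 13.3, 18.4 and 15.2 FPKM and 3.61, 3.70 and 3.16 FPKM (log2 fold change -1.88, limma, adjusted p = 0.000107). The libraries of *Galk1* and *Pclaf* were close together in each group, and C2 stood with the others. The ion channel genes *Tmem176a* (-2.07) and *Tmem176b* (-1.68), neighbouring paralogs, fell together, as did the surface antigen gene *Ly6a* (-1.78), the tropomyosin gene *Tpm2* (-1.68) and the cornified envelope gene *Lce1f* (-1.66), with log2 fold changes in parentheses. *Lce1f* was listed at 0 FPKM in every library of groups A and D, and at 30.0, 42.6 and 33.4 FPKM in group B and 7.47, 16.5 and 9.03 FPKM in group C.

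**Figure D2:**
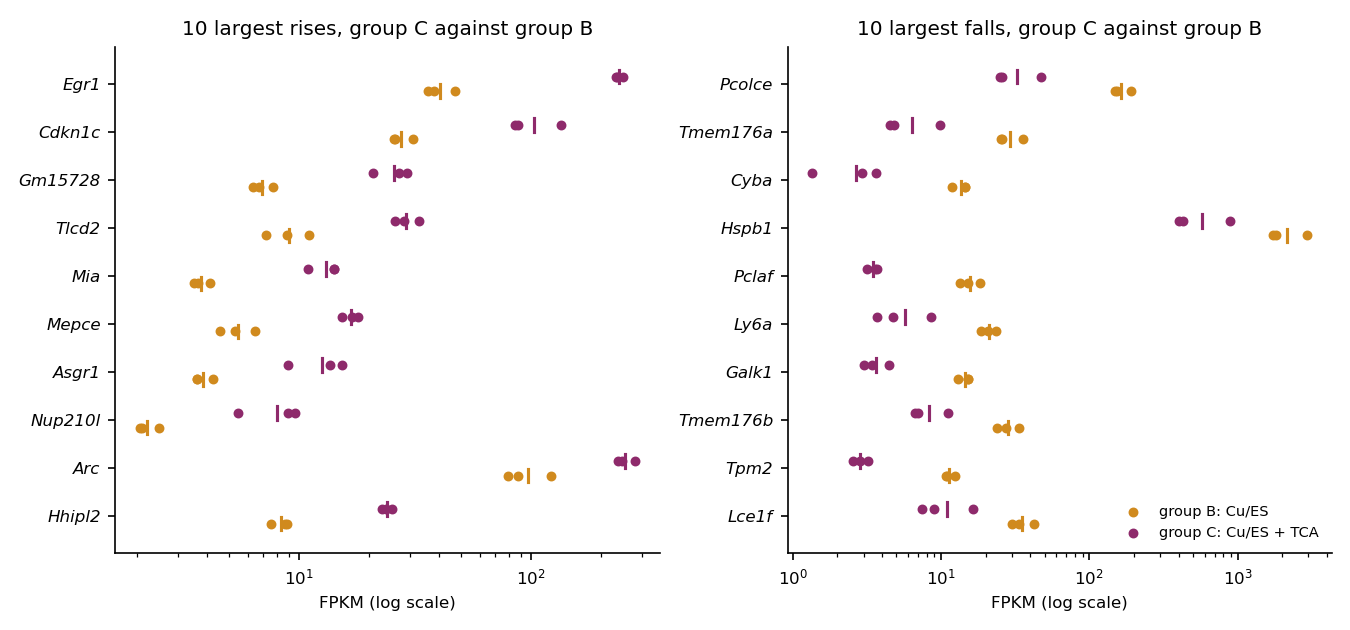
FPKM (log axis) of the 10 genes with the largest rise and the 10 with the largest fall among those past both thresholds, whose 6 libraries averaged 5 FPKM or more without overlap between groups. Points are libraries and ticks are group means (n = 3), and in *Egr1* the group C libraries sit at 232 to 248 FPKM against 35.8 to 47.0 FPKM in group B.

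The effect of TCA with Cu/ES was set against its effect without, as the difference of both log2 fold changes in a fit of all 12 libraries. The difference passed an adjusted p under 0.05 in 3634 of the 8615 genes (42.2%) and in all 20 genes above, which had been chosen for their change between groups C and B. It was 2.10 for *Cdkn1c* (limma, adjusted p = 9.53e-06), where TCA without Cu/ES gave -0.27. It was -2.20 for *Pcolce* (limma, adjusted p = 8.73e-05), where TCA without Cu/ES gave -0.15. *Egr1* and *Arc* rose in both settings, by 0.77 and 0.70 without Cu/ES (limma, adjusted p = 0.003 and 0.00596). The differences on the scale of log2(FPKM + 1) were 1.77 and 0.71, and for *Egr1* the rise was larger with Cu/ES. On this scale the added 1 shrinks the changes of genes that are low in groups A and D, such as *Arc*. The differences of such genes therefore depend in part on the added 1. *Galk1* fell in both, by 0.47 without Cu/ES on the log2 scale.

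Nuclear genes of the respiratory chain were lower with TCA. Complex I, the NADH dehydrogenase that starts the chain, had 37 tested nuclear subunits, of which 33 fell at the adjusted p and none rose, and 7 fell past both thresholds. The remaining 4, *Ndufa1*, *Ndufs7*, *Ndufb3* and *Ndufs1*, had log2 fold changes of -0.02, -0.15, -0.18 and -0.19 and did not pass. The median log2 fold change was -0.69, and -0.80 without C2. *Ndufa12* was at 21.7, 21.2 and 23 FPKM in group B and 3.99, 10.6 and 5.85 FPKM in group C (log2 fold change -1.65, SE 0.25, limma, adjusted p = 0.00117). *Ndufb4* was at 21.2, 15.7 and 23 FPKM and 5.44, 8.28 and 6.99 FPKM (log2 fold change -1.41, limma, adjusted p = 0.000407). In both, C2 was the highest library of group C, and no library overlapped with group B. *Ndufs6* (-1.37) and *Ndufb8* (-1.16) followed in size. Of the 6 tested assembly factors of complex I, 1 rose (*Foxred1*, 0.59) and 1 fell (*Acad9*, -0.69), while *Ndufaf2* (0.25) and *Ndufaf8* (-0.60, and -0.99 without C2) did not pass, with a median of 0.02.

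For complexes II, III and IV, 23 of 33 nuclear genes fell and 1 rose, with a median of -0.49. *Uqcr11*, of the cytochrome bc1 complex, was at 53.9, 47.2 and 56.5 FPKM and 21, 23.1 and 24.4 FPKM (log2 fold change -1.17, limma, adjusted p = 0.000133). *Sdhc*, which anchors succinate dehydrogenase in the membrane, was at 26.7, 29.4 and 28.8 FPKM and 11.4, 15.3 and 12.1 FPKM (log2 fold change -1.08, limma, adjusted p = 0.000269). *Uqcrb* (-1.02) and *Cyc1* (-0.97), also of the bc1 complex, were the next largest. The ATP synthase list had 14 falls and no rise among 18 genes (median -0.43), led by *Atp5g1* (-1.03), *Atp5k* (-0.94), *Atp5j2* (-0.86) and *Atp5g2* (-0.80). TCA without Cu/ES gave medians of 0.02, -0.03 and -0.02 for these 3 lists.

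The mitochondrial genome encodes further subunits of the same complexes. Of its 13 protein-coding genes, 4 rose and none fell, and the list's median was 0.28 (0.13 without C2, when 1 fell). *ND4* was at 1232, 1351 and 1199.8 FPKM in group B and 1678, 1894 and 1569.8 FPKM in group C (log2 fold change 0.44, limma, adjusted p = 0.00488). *CYTB* was at 6547, 7475 and 6277 FPKM and 8879.5, 9701 and 8505 FPKM (log2 fold change 0.42, limma, adjusted p = 0.00966). C2 was the highest library for both, and without C2 the log2 fold changes were 0.37 and 0.36. The call of *CYTB* was lost without B1 (limma, adjusted p = 0.0512). *COX3* rose by 0.47, and *ND6* had -0.37 with overlapping groups (limma, adjusted p = 0.161). These 13 genes held 4.08% to 4.49% of the reads without TCA and 4.88% to 5.0% with it.

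**Figure D3:**
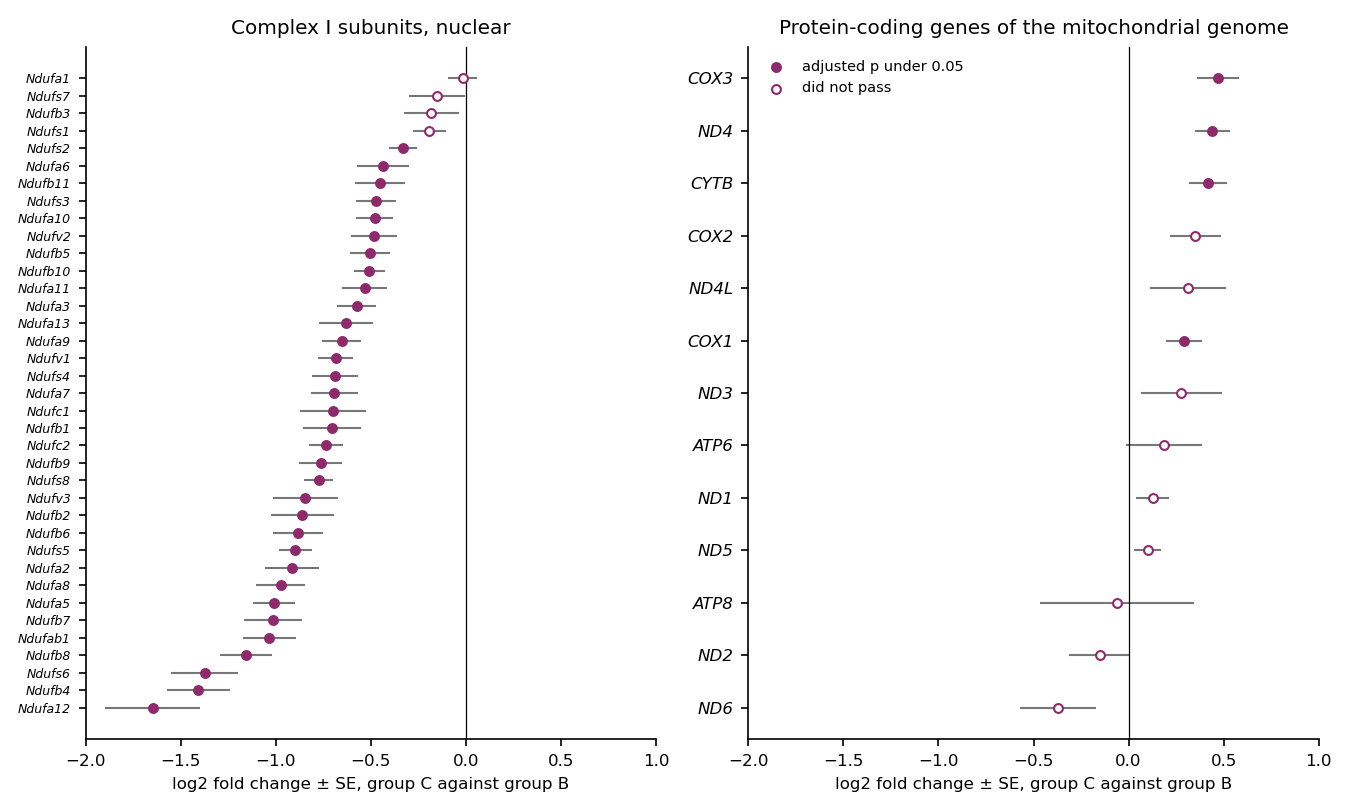
Log2 fold change of FPKM + 1 between group C and group B, with its standard error as bars, for 37 nuclear complex I subunits and the 13 protein-coding genes of the mitochondrial genome. Filled points passed an adjusted p under 0.05, and all nuclear subunits sit at or below 0 with a median of -0.69 against 0.28 for the mitochondrial genome.

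Enzymes upstream of the chain fell in part. In the citric acid cycle 10 of 15 genes fell and none rose (median -0.50). *Idh2*, the mitochondrial NADP-dependent isocitrate dehydrogenase, was at 3.90, 3.89 and 3.84 FPKM and 1.05, 0.918 and 1.08 FPKM (log2 fold change -1.28, limma, adjusted p = 0.000125), and its level in group A was 30.9 ± 1.56 FPKM. *Idh3a* (-0.78), *Mdh2* (-0.64) and *Suclg1* (-0.61) fell by less. For fatty acid oxidation 10 of 20 genes fell and 1 rose (median -0.33), and the median was -0.17 for TCA without Cu/ES. The electron transfer flavoprotein gene *Etfb* was at 14.8, 17.3 and 15.3 FPKM and 5.78, 6.59 and 5.69 FPKM (log2 fold change -1.26, limma, adjusted p = 0.000127), followed by *Acat1* (-0.95), *Acadvl* (-0.89) and *Acadl* (-0.75).

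Of 8 tested lipoylation genes 3 fell and 2 rose, where 22.6% of all genes tested were lower and 21.5% higher. With so few genes, these counts are not read as a trait of the list. *Dlat*, the lipoylated E2 subunit of pyruvate dehydrogenase, was at 8.52, 7.86 and 9.55 FPKM and 5.58, 5.49 and 5.82 FPKM (log2 fold change -0.54, limma, adjusted p = 0.00264), and *Pdhx*, which tethers its E3 subunit, fell by the same size (-0.54). *Dlst*, the E2 subunit of the oxoglutarate dehydrogenase, fell from 35.4, 39.4 and 39.4 FPKM to 30.7, 33.6 and 30.8 FPKM (log2 fold change -0.26, limma, adjusted p = 0.0266). This call was lost without B2, B3, C1 or C3, under TPM and with no filter (limma, adjusted p = 0.0563 to 0.0988). By contrast, both E1 subunits of pyruvate dehydrogenase rose, *Pdha1* by 0.34 and *Pdhb* by 0.42 (limma, adjusted p = 0.0169 and 0.00123). The call of *Pdha1* was lost without B2, B3, C1 or C3 (limma, adjusted p = 0.0529 to 0.0627). *Lias*, the lipoic acid synthase, was at 1.47, 1.86 and 1.53 FPKM and 1.10, 1.5 and 1.44 FPKM, with overlapping groups (limma, adjusted p = 0.291). *Fdx1* was under the filter, at 0.669, 0.481 and 0.472 FPKM in group B and 0.220, 0.474 and 0.468 FPKM in group C, which rested on 50 to 73 and 22 to 57 reads per library. Its groups overlapped (exact permutation test, two-sided, p = 0.2), and its level was 5.28 ± 0.217 FPKM in group A and 3.99 ± 0.372 FPKM in group D. Of 16 iron-sulfur cluster assembly genes 3 rose and 1 fell (median 0.00), with *Bola1* (0.54) and *Fdxr* (0.37) higher and *Hscb* (-0.40) lower. *Isca2*, at -0.42, did not pass. Leaving out 1 library ended the call of *Bola1* without B3 or any library of group C, that of *Fdxr* without B2 or C3, and that of *Hscb* without B2, B3 or C3 (limma, adjusted p = 0.059 to 0.109). Mitochondrial ribosomal proteins fell in 31 of 70 genes (median -0.27), with *Mrpl12* at -0.98, *Mrps33* at -0.90 and *Mrpl28* at -0.89, and *Mrps26* was the 1 gene that rose (0.92).

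Genes of copper handling fell in 7 of 16 cases and rose in 1. The metallothioneins bind copper and zinc in the cytosol and are induced by both metals. *Mt1* was at 373, 303 and 387 FPKM in group B and 149, 175 and 157 FPKM in group C (log2 fold change -1.13, SE 0.11, limma, adjusted p = 0.000191). *Mt2* was at 317, 234 and 292 FPKM and 159, 175 and 149.7 FPKM (log2 fold change -0.79, SE 0.11, limma, adjusted p = 0.000992). In both genes all 3 libraries with TCA were below those without it. Group A held 169 ± 8.71 FPKM of *Mt1*, within the range of group C, and 554 ± 35.7 FPKM of *Mt2*, above both copper groups. *Atox1*, the chaperone that hands copper to the export pumps, was at 112, 126 and 128 FPKM and 57.3, 71.2 and 56.4 FPKM (log2 fold change -0.98, limma, adjusted p = 0.000281), and the ferroxidase gene *Cp* fell as well (-0.96). The copper importer gene *Slc31a1* was at 28.1, 26.8 and 30.5 FPKM and 34.1, 30.3 and 33.8 FPKM and did not pass (log2 fold change 0.20, limma, adjusted p = 0.0829), whereas it passed without C2 (0.25, limma, adjusted p = 0.0169). *Atp7b*, the copper export pump of hepatocytes, was under 0.1 FPKM in all 6 libraries, with 4 to 22 reads.

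NRF2 targets, which detoxify and buffer oxidants, fell in 11 of 24 genes and rose in 3 (median -0.18). *Hmox1*, the heme oxygenase, was at 2538, 2954 and 2587 FPKM and 1528, 1767 and 1515 FPKM (log2 fold change -0.75, limma, adjusted p = 0.000563), against 28.6 ± 6.50 FPKM in group A. *Nqo1*, a quinone reductase, was at 17.3, 15.3 and 17.3 FPKM and 8.27, 8.66 and 8.60 FPKM (log2 fold change -0.89, limma, adjusted p = 0.000229). The thioredoxin gene *Txn1* (-0.78) and the glutathione conjugate pump gene *Abcc1* (-0.57) also fell. Of 14 iron genes 4 rose, among them the iron importer gene *Slc11a2* (0.80), and 3 fell, among them the ferritin heavy chain gene *Fth1* (-0.47). *Slc39a14*, a zinc and iron importer gene, was at 0.39 and did not pass (limma, adjusted p = 0.0541).

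Cytosolic heat shock proteins hold and refold damaged proteins, and part of them fell with TCA. Of 41 tested chaperones and co-chaperones 19 fell, 2 rose and 20 did not pass (median -0.27, and -0.30 without C2). Beside *Hspb1*, *Hspa1a* fell past both thresholds, from 338, 682 and 308 FPKM to 108, 185 and 138 FPKM (log2 fold change -1.56, SE 0.29, limma, adjusted p = 0.00302). B2 was by far the highest of group B for this gene, and the groups stayed apart. *Hspa1b*, its near-identical neighbour, was at 7327, 8946 and 7252 FPKM and 5443, 6556 and 5453 FPKM (log2 fold change -0.43, limma, adjusted p = 0.0169). How the counting treated reads that match both *Hspa1a* and *Hspa1b* was not stated, so the values of each are uncertain. *Dnaja4* was at 89.1, 171 and 87.8 FPKM and 43.8, 86.9 and 43.3 FPKM (log2 fold change -0.99, limma, adjusted p = 0.0294). The calls of *Hspa1b* and *Dnaja4* were lost without B2, C1 or C3 (limma, adjusted p = 0.0615 to 0.103). *Fkbp4*, a co-chaperone of HSP90, was at 38.9, 38.4 and 38.4 FPKM and 19.6, 23.1 and 19.2 FPKM (log2 fold change -0.87, limma, adjusted p = 0.000234).

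Heat shock factor 1 acts through alternating units of GAA and TTC. The promoter window of *Hspb1* is printed because this gene fell most of the list. It was taken from RefSeq on build GRCm38.p6, which is not the build of the deposited values (GRCm39), and covers the 250 bases before the transcription start, chr5:135887669-135887918 on the plus strand. Capitals mark each match to GAANNTTC or TTCNNGAA, both of which read the same on either strand.
Hspb1: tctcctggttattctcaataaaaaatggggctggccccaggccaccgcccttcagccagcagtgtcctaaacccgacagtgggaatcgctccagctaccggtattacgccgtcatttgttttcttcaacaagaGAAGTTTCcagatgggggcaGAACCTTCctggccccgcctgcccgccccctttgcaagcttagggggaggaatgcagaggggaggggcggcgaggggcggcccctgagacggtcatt
A match of this kind was found in 16 of 36 heat shock list genes with a promoter, and in 13.9% of all 6896 tested genes with one. It was in 15.1% of all 32851 promoter windows of 300 bases, which also take in 50 bases after the start. The longer form with 3 units, GAANNTTCNNGAA or TTCNNGAANNTTC, which contains the shorter form, was in 5 of the 36 (*Hsph1*, *Hspd1*, *Hspe1*, *Dnajb6* and *Chordc1*), in 0.638% of the tested genes with a promoter and in 0.603% of all windows. Of these 5 genes *Hsph1* (-0.34), *Hspd1* (-0.27) and *Chordc1* (-0.29) fell, *Dnajb6* rose (0.21) and *Hspe1*, at -0.14, did not pass. These 5 genes thus went both ways.

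The stress response of the endoplasmic reticulum raises chaperones and degradation factors of that organelle, and part of its genes rose. Of 28 tested genes 13 rose and 1 fell (median 0.22). *Hyou1*, an HSP70-like chaperone of the organelle, was at 45.4, 38.2 and 41.9 FPKM in group B and 116, 78.5 and 109 FPKM in group C (log2 fold change 1.24, SE 0.14, limma, adjusted p = 0.000356). C2 was the lowest library of its group and still well above group B. *Syvn1*, a ubiquitin ligase that clears misfolded proteins, was at 41.1, 46.1 and 43.3 FPKM and 60.6, 64.4 and 66.0 FPKM (log2 fold change 0.54, limma, adjusted p = 0.000756). *Manf*, a secreted survival factor, was at 139.9, 141 and 141 FPKM and 194, 213 and 199 FPKM (log2 fold change 0.52, limma, adjusted p = 0.000549). *Sel1l*, the adaptor of the ligase encoded by *Syvn1*, also rose (0.64). *Hspa5*, which encodes the master chaperone BiP, rose from 1494, 1767 and 1491 FPKM to 1965, 2178 and 1906 FPKM (log2 fold change 0.35, limma, adjusted p = 0.0159).

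The endoplasmic reticulum stress element, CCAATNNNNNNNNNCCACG, is bound by ATF6 with NF-Y. It was searched on both strands, where the other strand reads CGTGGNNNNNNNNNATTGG. A match was found in 8 of 24 list genes with a promoter window, in 0.189% of all 6896 tested genes with one, and in 0.119% of all windows. The 250 bases before the start of *Hspa5*, chr2:34771840-34772089 on the plus strand (GRCm38.p6, RefSeq), and the matches of 3 more genes that rose are printed to show the element, with the match of *Hspa5* and the fixed letters of the others in capitals.
Hspa5: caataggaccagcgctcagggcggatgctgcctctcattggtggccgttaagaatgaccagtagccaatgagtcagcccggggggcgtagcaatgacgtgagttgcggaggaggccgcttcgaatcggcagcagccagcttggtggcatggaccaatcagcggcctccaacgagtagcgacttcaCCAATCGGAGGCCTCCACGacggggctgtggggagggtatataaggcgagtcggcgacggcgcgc
Hsp90b1: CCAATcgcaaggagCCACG
Pdia6: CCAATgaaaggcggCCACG
Syvn1: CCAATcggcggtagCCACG
The 3 shorter stretches are at chr10:86705638-86705656 (minus strand), chr12:17266491-17266509 (plus strand) and chr19:6046532-6046550 (plus strand). *Hsp90b1* (0.38) and *Pdia6* (0.38) rose, while the remaining 4 genes with a match, *Calr* (-0.03), *Canx* (-0.02), *Dnajc3* (-0.20) and *Creld2* (0.13), did not pass.

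The integrated stress response, which follows phosphorylation of the initiation factor eIF2, was lower in 16 of 32 genes and higher in 4 (median -0.21). TCA without Cu/ES gave a median of 0.48 for the same genes. *Gdf15*, a secreted stress hormone, was at 77.7, 92.6 and 78.5 FPKM and 40.5, 54.7 and 40.4 FPKM (log2 fold change -0.87, limma, adjusted p = 0.000967). *Fgf21*, another stress hormone of the liver, was at 9.69, 8.84 and 7.93 FPKM and 5.69, 4.75 and 5.39 FPKM (log2 fold change -0.64, limma, adjusted p = 0.00173). The proline synthesis gene *Pycr1* fell (-0.70), and the apoptosis gene *Bbc3*, also of the BCL2 family, rose (0.49). Proteasome subunits had 5 rises and 5 falls among 34 (median -0.06, 0.02 under TPM), with *Adrm1* (0.42) and *Psma1* (0.33) higher and *Psma7* (-0.67) and *Psmb5* (-0.37) lower. Without C2, 18 proteasome subunits fell. The call of *Psma1* was lost without B1 or B2, and that of *Psmb5* without B1, B3, C1 or C3 (limma, adjusted p = 0.051 to 0.109).

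Sterol synthesis held the most rises of the 42 lists examined. Of 32 tested genes of cholesterol and fatty acid synthesis 21 rose and 1, *Ebp*, fell (-0.79). The list's median was 0.40 on the log2 scale, and 0.26 for TCA alone. *Sqle*, the squalene epoxidase, was at 74.5, 76.4 and 72.5 FPKM and 189, 161 and 178 FPKM (log2 fold change 1.23, SE 0.08, limma, adjusted p = 0.000107). *Sc5d*, a late desaturase of the pathway, was at 16.9, 16.7 and 17 FPKM and 36.8, 32.1 and 40.1 FPKM (log2 fold change 1.06, limma, adjusted p = 0.000162). All libraries of group C were above those of group B in both. *Msmo1* (0.85) and *Idi1* (0.85) rose as well, and so did the regulator gene *Srebf2* (0.41).

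Genes that handle bile acids were mostly under the filter, with 6 of 28 tested. *Nr1h4*, the bile acid receptor FXR, was at 2.15, 2.30 and 2.09 FPKM and 2.78, 3.27 and 3.78 FPKM (log2 fold change 0.42, limma, adjusted p = 0.0169), a call lost without B1, B3 or C3 (limma, adjusted p = 0.0549 to 0.072). Its target *Nr0b2* was listed at 0 in B1 to B3 and at 0, 0.179 and 0.0242 FPKM in C1 to C3, with at most 8 reads. The bile salt export pump gene *Abcb11* was at 0.388, 0.496 and 0.427 FPKM and 0.926, 0.504 and 0.671 FPKM, under the filter. *S1pr2*, a receptor that responds to conjugated bile acids, rose (0.74), and of the multidrug transporter pair *Abcb1a* rose (0.44) and *Abcb1b* fell (-0.46). *Slc10a1*, the sodium taurocholate cotransporter, was not analysed here. Of 11 PPAR-linked genes 4 rose, among them *Hilpda* (0.77), *Acot2* (0.73) and *Acsl3* (0.49), and 3 fell, among them *Fgf21*. Among all genes tested, 21.5% rose and 22.6% fell. *Angptl4*, a secreted inhibitor of lipoprotein lipase, was at 4.10, 4.37 and 4.35 FPKM in group B and 3.61, 3.76 and 2.90 FPKM in group C and did not pass (log2 fold change -0.26, limma, adjusted p = 0.0871). In the groups without copper it was at 14.6 ± 2.35 FPKM in group A and 59.3 ± 4.64 FPKM in group D, and the difference of both TCA effects was -2.22 (limma, adjusted p = 2.56e-06).

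Of 29 immediate early genes 11 rose and 3 fell, with a median of 0.08. *Jund*, an AP-1 subunit, was at 72.3, 86.0 and 81.6 FPKM and 144, 212 and 154 FPKM (log2 fold change 1.06, limma, adjusted p = 0.000604, and 0.90 without C2). *Fosb*, a partner of it, was at 40.3, 43.4 and 39.3 FPKM and 75, 74.2 and 70.6 FPKM (log2 fold change 0.82, limma, adjusted p = 0.000162). In contrast, *Fos* (-0.08), *Jun* (0.08) and *Myc* (0.00) did not pass. Feedback genes of MAP kinase signaling rose in 6 of 15 cases and fell in 2 (median 0.26). The ERK phosphatase genes *Dusp7* (0.98) and *Dusp6* (0.64) and *Spry4* (0.61) rose, and *Dusp1*, a nuclear phosphatase for stress kinases, fell from 154, 190.2 and 165 FPKM to 100.4, 123 and 102 FPKM (log2 fold change -0.64, limma, adjusted p = 0.00158).

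Genes of proliferation were lower with TCA. Of 51 DNA replication genes 36 fell and 2 rose (median -0.50, and -0.09 without Cu/ES). *Uhrf1*, which maintains DNA methylation at replication, was at 36.3, 41.0 and 37.2 FPKM and 16.8, 16.4 and 15.6 FPKM (log2 fold change -1.18, SE 0.08, limma, adjusted p = 0.000107). The ligase gene *Lig1* (-1.11), the primase gene *Prim1* (-1.11) and the ribonucleotide reductase gene *Rrm2* (-0.97) followed. Of 55 genes of mitosis 35 fell and 2 rose (median -0.47, and -0.16 without Cu/ES). *Top2a*, which untangles chromosomes, was at 57.9, 67.2 and 54.8 FPKM and 25, 28.8 and 22.4 FPKM (log2 fold change -1.21, limma, adjusted p = 0.000177). The kinetochore gene *Spc24* (-1.37), the spindle gene *Hmmr* (-1.11) and the kinesin gene *Kif11* (-1.01) also fell. As the shift from the group B mean, the median of the replication list was -0.42 in C2 against -0.47 and -0.52 in C1 and C3, and that of the mitosis list was -0.43 against -0.44 and -0.48.

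Of 29 p53 targets and cell cycle regulators, which include cell cycle inhibitors, 6 rose and 5 fell, which is no larger a share than among all genes tested (21.5% and 22.6%). Besides *Cdkn1c*, *Trp53inp1* (0.71) and *Aen* (0.69) rose, and cyclin D1 (*Ccnd1*) fell from 2.39, 2.83 and 2.31 FPKM to 0.775, 1.41 and 0.657 FPKM (log2 fold change -0.87, limma, adjusted p = 0.00225), against 78.9 ± 17.8 FPKM in group A. *Ccnd1* was under 1 FPKM in C1 and C3, and it passed the filter only through group B. In the BCL2 family 8 of 19 rose and 5 fell. The antiapoptotic *Bcl2* was at 0.760, 0.519 and 0.937 FPKM and 2.13, 1.85 and 2.53 FPKM (log2 fold change 0.87, limma, adjusted p = 0.00117). *Bcl2* was under 1 FPKM in every library of group B, so it passed the filter only through group C. The proapoptotic *Bnip3* (0.55) rose too. *Bok*, also proapoptotic, fell (-0.56). Of 11 histone genes 3 fell, *Macroh2a1* (-0.56), *H2az2* (-0.49) and *H2aj* (-0.44), and 1 rose, and *H2ac4*, at -0.41, did not pass. The call of *Bok* was lost without B3 (limma, adjusted p = 0.0537), and that of *H2az2* without any 1 library other than C2 (limma, adjusted p = 0.0763 to 0.121).

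Most extracellular matrix genes fell. Of 30 tested genes 23 fell, 2 rose and 8 fell past both thresholds (median -0.67, and -0.12 without Cu/ES). *Sparc*, a collagen-binding matricellular protein, was at 121, 134 and 114 FPKM and 43.2, 53.2 and 39.9 FPKM (log2 fold change -1.43, SE 0.11, limma, adjusted p = 0.000127). *Loxl2*, which crosslinks collagen, was at 3.68, 5.10 and 3.32 FPKM and 0.926, 1.57 and 0.999 FPKM (log2 fold change -1.21, limma, adjusted p = 0.000707). *Fbln1*, a matrix glycoprotein, was at 5.13, 6.36 and 4.51 FPKM and 1.44, 1.99 and 1.82 FPKM (log2 fold change -1.20, limma, adjusted p = 0.000368). No library overlapped in these genes. The shift of the list's median from the group B mean was -0.60 in C1, -0.60 in C2 and -0.73 in C3. Among inflammatory genes, 4 of 24 NF-kB targets rose and 4 fell, smaller shares than among all genes tested (21.5% and 22.6%). The 4 falls were *Csf1*, a growth factor of macrophages, at 15, 23.9 and 14.1 FPKM and 6.18, 8.58 and 5.45 FPKM (log2 fold change -1.25, limma, adjusted p = 0.00162), the chemokine genes *Ccl2* (-1.09) and *Ccl7* (-0.76) and the adhesion gene *Vcam1* (-0.86). In the MHC class I and interferon list 3 of 19 rose and 6 fell, led by the antiviral genes *Ifitm3* (-1.23) and *Ifitm2* (-0.86), the immunoproteasome gene *Psmb10* (-0.90) and *Bst2* (-0.84). The libraries of *Bst2* overlapped, and its call was lost without B2, B3, C1 or C3 (limma, adjusted p = 0.0541 to 0.0902).

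Genes of hepatocyte functions went in both directions. Of 13 tested plasma protein genes 4 rose and 6 fell, where 21.5% of all genes tested were higher and 22.6% lower. *Apoe*, the apolipoprotein of remnant particles, was at 7.47, 7.81 and 8.60 FPKM and 19.2, 20.6 and 21.7 FPKM (log2 fold change 1.26, SE 0.09, limma, adjusted p = 0.000111). *Serpinf2*, which inhibits plasmin, was at 1.40, 1.48 and 1.42 FPKM and 5.53, 5.46 and 6.24 FPKM (log2 fold change 1.47, limma, adjusted p = 0.000107). The acute phase gene *Saa1* was at 0.762, 0.868 and 0.432 FPKM and 1.99, 2.77 and 2.58 FPKM (log2 fold change 1.03, limma, adjusted p = 0.000745). These 3 genes were low in group A, at 1.73 ± 0.243, 0.0277 ± 0.0383 and 0 FPKM. *Saa1* was under 1 FPKM in every library of group B, so it passed the filter only through group C. *Clu*, a secreted chaperone, fell from 82.1, 111 and 77.9 FPKM to 29.3, 44.7 and 29.4 FPKM (log2 fold change -1.37, limma, adjusted p = 0.000636). Drug-metabolising enzymes fell in 9 of 14 genes and rose in 1 (median -0.53), led by the glutathione transferase genes *Gstm1* (-1.30), *Mgst1* (-1.15) and *Gstp1* (-0.91) and the epoxide hydrolase gene *Ephx1* (-0.77). Of 5 tested hepatocyte transcription factors *Atf5* (0.63) and *Cebpb* (0.39) rose, and *Foxa2* (-0.23) and *Rxra* (0.12) did not pass.

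Autophagy genes rose in 15 of 35 cases and fell in 6 (median 0.21). *Ulk1*, the kinase that starts autophagy, was at 6.66, 5.36 and 5.59 FPKM and 12.4, 10.2 and 13.1 FPKM (log2 fold change 0.91, limma, adjusted p = 0.00066). *Atg2a*, a lipid transfer protein of the growing membrane, was at 19.8, 19.8 and 20.4 FPKM and 39.9, 34.2 and 42.1 FPKM (log2 fold change 0.92, limma, adjusted p = 0.00023). *Atg9a* (0.73) and the cargo receptor gene *Nbr1* (0.66) also rose. Of 46 lysosomal genes 11 rose, among them the proton pump genes *Atp6v0a1* (0.62) and *Atp6v0d1* (0.62), and 12 fell, among them the hydrolase genes *Galns* (-0.81) and *Ppt1* (-0.70). These shares were near those of all genes tested (21.5% higher and 22.6% lower). The call of *Atp6v0a1* was lost without B2, C1 or C3 (limma, adjusted p = 0.0693 to 0.0797).

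In glycolysis 5 of 19 rose and 7 fell, where 21.5% of all genes tested were higher and 22.6% lower. *Tpi1*, triosephosphate isomerase, was at 109, 92.4 and 117 FPKM and 39.7, 46.3 and 38.6 FPKM (log2 fold change -1.33, limma, adjusted p = 0.000133), and *Ldha* (-0.80) and *Eno1b* (-0.78) fell, while the first enzyme gene *Hk2* rose (0.73). Of 13 hypoxia genes 8 rose and 1 fell (median 0.43), led by the oxygen sensor gene *Egln2* (1.11), *Ndrg1* (1.10), the histone demethylase gene *Kdm3a* (1.05) and *Hilpda* (0.77). *Ndrg1*, a hypoxia-induced growth regulator, was at 67.7, 52.7 and 72.1 FPKM and 148, 117 and 151 FPKM (limma, adjusted p = 0.000454). The list's median was -0.19 for TCA without Cu/ES. In Hedgehog signaling, 2 of 12 rose, the ligand gene *Ihh* (0.99) and the kinase gene *Gsk3b* (0.61), and none fell. *Ptch1* (0.31) and *Arrb2* (-0.31) did not pass. The receptor gene *Smo* was under the filter, at 0.823, 0.838 and 0.460 FPKM and 0.436, 0.356 and 0.234 FPKM, so that the groups were apart on 58 to 110 and 31 to 52 reads (two-sided exact permutation p = 0.1, and 3 libraries against 3 cannot give less). It was at 15.2 ± 0.622 FPKM in group A and 12.9 ± 1.30 FPKM in group D. *Gli1*, the transcription factor and target of the pathway, had 6 to 20 reads in the libraries of group B and 10 to 13 in those of group C, and its groups overlapped.

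Ribosomal proteins form the machinery of translation. Of 79 cytosolic ribosomal proteins 9 fell and none rose (median -0.13), smaller shares than among all genes tested (22.6% and 21.5%). Without C2, however, 52 fell. *Rps2* was at 1979.8, 2078 and 2076 FPKM and 1145, 1568 and 1201 FPKM (log2 fold change -0.66, limma, adjusted p = 0.00228), followed by *Rpl36* (-0.49), *Rpl3* (-0.37) and *Rpsa* (-0.31). The shift of the list's median from group B was -0.24 in C1, 0.05 in C2 and -0.20 in C3, so this list turned on which library was included. The call of *Rpsa* was lost without any 1 library other than C2 (limma, adjusted p = 0.0599 to 0.129). Of 48 ribosome biogenesis genes 7 rose and 13 fell (median -0.12, and 0.43 without Cu/ES), with *Wdr43* (-0.79), *Bop1* (-0.76), *Dkc1* (-0.72) and *Rrp1b* (-0.68) lower. The splicing list had 8 rises, among them *Srrm2* (0.58) and *Clk2* (0.54), and 8 falls among 30, among them the kinase gene *Clk1* (-0.71) and *Srsf4* (-0.60). The call of *Srrm2* was lost without any 1 library other than C2, and that of *Clk2* without B1 or C3 (limma, adjusted p = 0.0546 to 0.111). In the list of small nucleolar RNA hosts and nuclear long noncoding RNAs, genes fell in 7 of 19 cases and none rose, with *Snhg16* (-1.05), *Snhg17* (-0.86), *Snhg5* (-0.81) and *Snhg15* (-0.72) the largest.

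**Figure D4:**
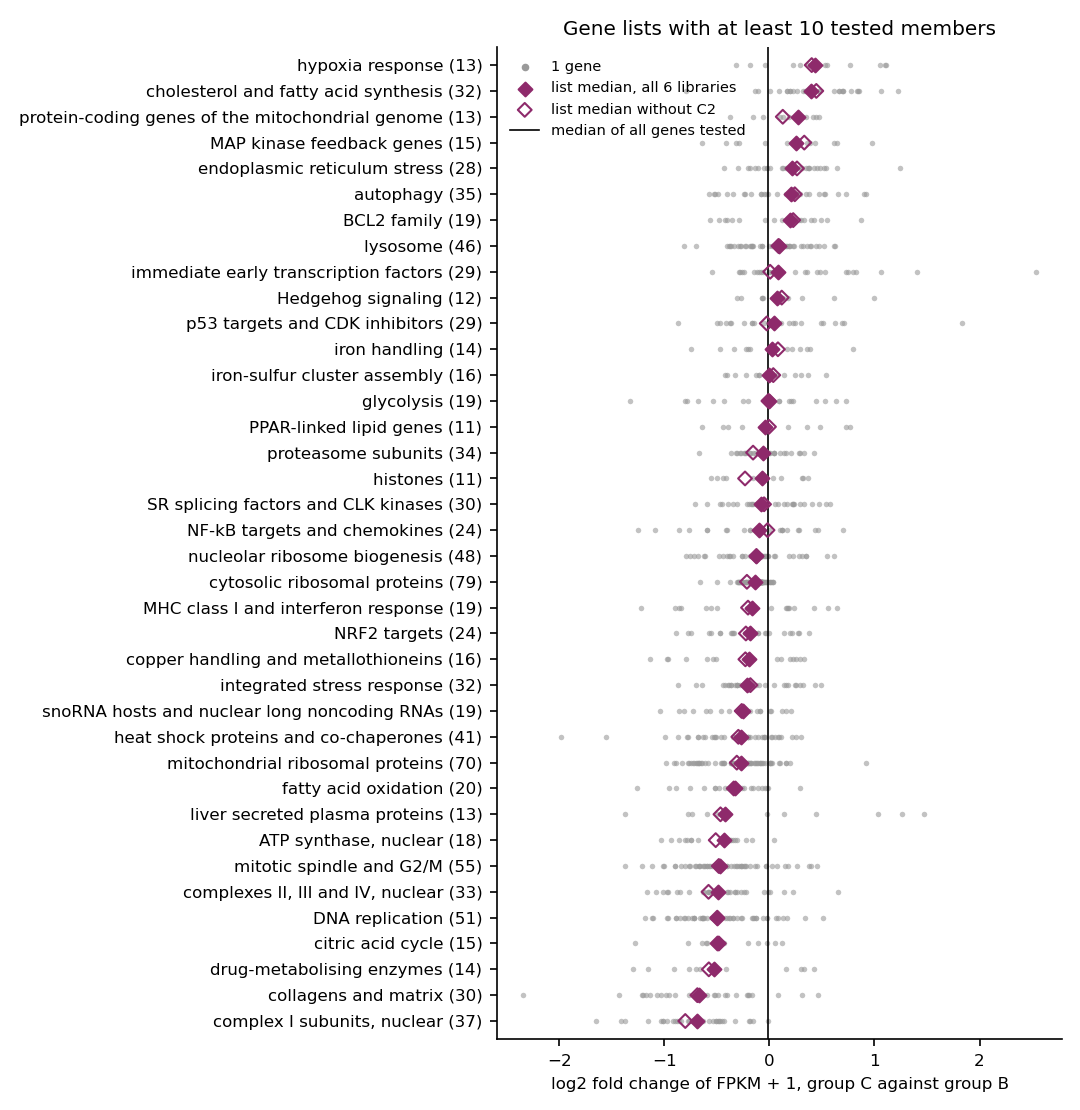
Log2 fold change of FPKM + 1 between group C and group B for lists with at least 10 tested members (number in parentheses), with 1 grey point per gene and diamonds for list medians with all 6 libraries (filled) and without C2 (open). The vertical line is the median of all genes tested (-0.01), complex I subunits lie farthest below it at -0.69, and hypoxia genes farthest above at 0.43.

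Gene length moved with the comparison. In the shortest of 5 equal length classes of the genes tested (76 to 1654 bases) the median log2 fold change was -0.15, and in the longest class (6240 to 83437 bases) it was 0.08. Without C2 these were -0.20 and 0.17. The shift from the group B mean in the shortest class was -0.23 in C1, -0.04 in C2 and -0.19 in C3, and in the longest class 0.18, -0.10 and 0.17, so that C1 and C3 showed the trend and C2 did not. Between groups D and A these classes had medians of 0.01 and -0.04. Several lists above are made of short genes, with a median length of 845 bases for nuclear complex I subunits, 895 for ATP synthase and 821 for cytosolic ribosomal proteins. Their medians of -0.69, -0.43 and -0.13 stand beside -0.15 for all genes of the shortest class, and the part of length in each was not tested. The matrix list fell with a median length of 4839 bases, within the class of 4030 to 6239 bases, whose median log2 fold change was 0.06. Among 8615 genes, 435 were long noncoding RNAs by the RefSeq biotype, of which 128 rose and 33 fell at the adjusted p (median 0.15), against 1686 and 1894 of 8030 protein-coding genes (median -0.02).

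**Figure D5:**
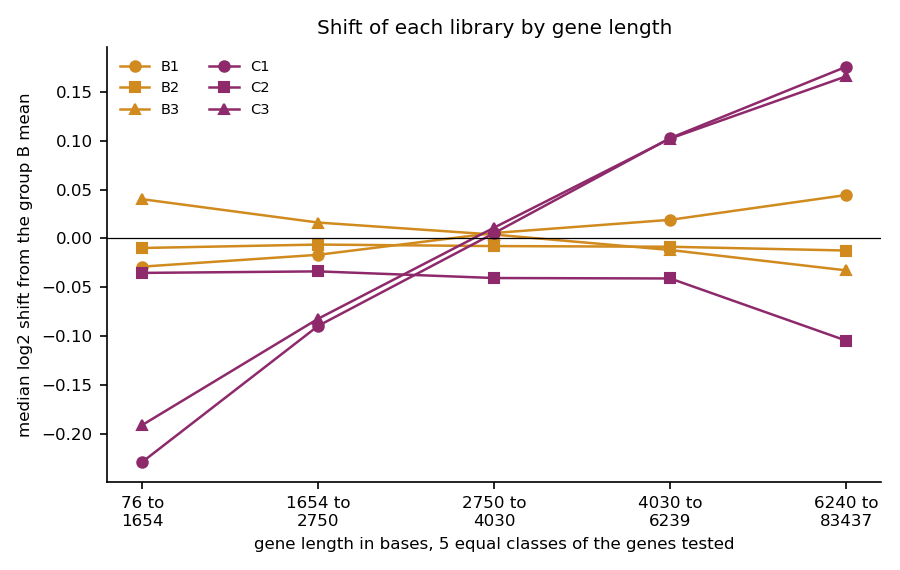
Median shift of log2(FPKM + 1) from the group B mean in each library, for 5 equal classes of the genes tested by gene length in bases. C1 and C3 run from about -0.2 in the shortest class to 0.18 and 0.17 in the longest, whereas C2 and the libraries of group B stay within 0.11 of 0.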

How the data were processed

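RNA of AML12 cells, a mouse hepatocyte line, was sequenced in 12 libraries. The authors deposited gene-level FPKM values. Per the labels, the submitters' processing notes name fastp, HISAT2, HTSeq and build GRCm39, while the annotation, the strand setting and the program for FPKM were not given in the sources used here. Whole reads per gene were recovered from the spacing of each gene's values (22212 of 22212 genes with values above 0 in 2 or more libraries, within 0.1 of a whole number, 99.99% of recovered lengths whole). They gave the library totals, read numbers, read shares and gene lengths printed here, and served for the simulated data and 1 alternative. The main test used FPKM values only. No column of per-sample values was left unused.

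FPKM was analysed as log2(FPKM + 1) with limma 3.58.1 (R 4.3.3, moderated test with a mean-variance trend, two-sided), over the 6 libraries of groups B and C and genes with a mean of at least 1 FPKM. P-values were adjusted by the Benjamini-Hochberg method over 8615 genes, and fold changes are on this scale, which understates those of low genes. Genes low in 1 group, such as *Bcl2*, *Saa1*, *Col1a1* and *Ccnd1*, passed the filter only through the other group. The difference of the TCA effects was fitted over 12 libraries. Named are the 10 largest rises and 10 largest falls (mean of at least 5 FPKM, past both thresholds, no overlap), up to 4 members with the largest change per list, and 19 genes of copper, bile acid, heat shock and Hedgehog biology. Further genes were named after their values were seen: marker genes, genes with promoter matches, the 4 complex I subunits that did not pass, *Ebp*, *Fos*, *Jun*, *Myc* and *Srebf2*. The comparison, its lists and its tests were chosen with earlier results of these data known. Alternatives covered the pseudocount, the filter, scaling, weights, the replicate block and leaving out each library. The fit was tested on simulated data. Strand was not stated, so overlapping genes cannot be told apart. Promoters were matched by symbol to a RefSeq table of build GRCm38.p6.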

Additional observations from a re-analysis of the deposited data

Results flagged for a closer look

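All 20 genes with the largest changes between groups C and B had TCA effects that differed with and without Cu/ES in the test of that difference (limma, 12 libraries, adjusted p of 2.56e-06 to 0.016), and they had been chosen for their change with Cu/ES. For genes that rose, the difference on the log2 scale was 2.10 for *Cdkn1c*, 1.77 for both *Egr1* and *Gm15728*, 1.42 for *Asgr1*, 1.31 for *Tlcd2*, 1.27 for *Mepce*, 1.13 for *Mia*, 1.05 for *Hhipl2*, 0.93 for *Nup210l* and 0.71 for *Arc*. For genes that fell, it was -2.20 for *Pcolce*, -2.0 for *Cyba*, -1.90 for *Tpm2*, -1.77 for *Hspb1*, -1.75 for *Tmem176a*, -1.66 for *Lce1f*, -1.57 for *Pclaf*, -1.46 for *Tmem176b*, -1.41 for *Ly6a* and -1.28 for *Galk1*. For *Lce1f*, which was listed at 0 in groups A and D, the difference equals the change with Cu/ES and depends on the pseudocount. *Gm15728*, *Tlcd2*, *Mia* and *Hhipl2* averaged under 1 FPKM in groups A and D, and *Arc* was low there. The pseudocount shrinks their TCA effects without Cu/ES, so their differences depend on it in part as well.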

How the results depend on the processing

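Against 130 genes higher, 123 lower and 3797 past the adjusted p, a pseudocount of 0.1 gave 328 higher and 280 lower genes past both thresholds, voom on recovered reads gave 356 and 301, TPM gave 280 higher genes, and a filter at a mean of 5 FPKM, which tests fewer genes, gave 66 higher genes and 2489 past the adjusted p. Leaving out each library gave 106 to 187 higher genes, 102 to 180 lower genes and 2736 to 4710 past the adjusted p. The upper ends came without C2, and without B2 and C2, a choice made after seeing the data, there were 179 higher and 171 lower. Of 3040 combinations of a called named gene and a setting, 2949 kept direction and call, 91 (23 genes) lost the call and 0 changed direction, with the cause of each lost call not tested. Among the genes checked, those whose call was lost without 1 library are named beside their values. Genes named only after their values were seen, such as *Krt18*, *Col1a1*, *Hspa5* and *Hsph1*, were not checked in this way. List medians changed sign in 33 of 756 combinations, in 12 lists. The replicate block gave 130 higher and 124 lower genes and 4097 past the adjusted p. Deviations of same-numbered libraries correlated by 0.31, 0.26 and 0.03, and C3 correlated best with B1, so the numbers were not taken as a pairing. With 3 libraries per group, 1 of them apart, small changes stay uncertain, as do genes near 1 FPKM.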
